A study of Homo sapiens with 18 samples.

Results

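A set of 10 genes of the Eph receptor and ephrin family, 8 receptors and 2 ephrins, was followed in 18 RNA Seq libraries of the prostate cancer cell lines LNCaP and C4-2. The members were EPHA1, EPHA2, EPHA3, EPHA4, EPHA7, EPHB2, EPHB3, EPHB4, EFNA1 and EFNB2, which are 10 of the 60675 genes in the counts. They were taken by their Ensembl identifiers from a list that had been drawn up because EPHA7 falls in C4-2 cells when KDM1A and KDM7A are depleted. That fall, every value of the members from the same contrast, and the values of EPHA7 in comparisons that share the C4-2 siScr libraries with R1881 are therefore given as descriptions, without a test. The other 12 Eph receptors and ephrins were kept for comparison.

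Each line had 3 groups of 3 libraries. Cells carried scrambled siRNA (siScr) with vehicle, siScr with the synthetic androgen R1881 at 1 nM, or a mix of siRNA pools to KDM1A and KDM7A (dual knockdown) with R1881 at 1 nM, for 72 h. LNCaP is an androgen-dependent line with an androgen receptor and C4-2 is its castrate-resistant derivative, so each line is a single model and its libraries are not separate tumours. No library carried a knockdown of only 1 of the demethylases, and knockdown with vehicle was not analysed here. The 3 C4-2 vehicle libraries are named C4-2 in their titles but LNCaP in their cell line field and were grouped by title.

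Eph receptors are the largest family of receptor tyrosine kinases and ephrins are their ligands, which are themselves held on the cell surface, so that signals pass between touching cells. A-type ephrins sit in the membrane by a lipid anchor and bind mainly EphA receptors, whereas B-type ephrins cross the membrane and bind mainly EphB receptors. Signals run into the receptor-bearing cell and back into the ephrin-bearing cell, and act on cell shape, repulsion, adhesion and migration. In epithelial tumours the same receptor can act either way, with EPHA2 the best known example.

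Total counts ranged from 3182604 to 20154243, and the C4-2 vehicle replicate 3 library was the shallow one, with the next lowest at 10485096. Of the 8 luminal markers examined, all were above 1 CPM (counts scaled to a common library size) in each group mean, whereas TP63 and KRT5 of basal cells, CHGA, COL1A2, DCN, PECAM1 and CD3E stayed below 0.2 CPM. Other markers of these lists were expressed. Summed CPM over each list was at most 1.60 for 3 basal markers, 13.2 to 56.8 for 3 neuroendocrine, 7.53 to 36.7 for 4 fibroblast and 5.24 to 20.8 for 3 endothelial markers. In every group mean the gene with the largest part of these sums was KRT14, ENO2, COL1A1 and VWF, respectively. SYP was also above 1 CPM in each group mean, and COL3A1 in LNCaP with vehicle. The summed CPM of 3 leukocyte markers was 2.04 to 3.51 in the C4-2 vehicle libraries and at most 0.733 in the others. PTPRC made up most of the leukocyte sum in the C4-2 vehicle group mean. KDM1A fell 2.07-fold in LNCaP and 8.66-fold in C4-2 on dual knockdown, and KDM7A fell 1.90-fold and 5.69-fold. The androgen-induced genes KLK3, TMPRSS2 and FKBP5 rose with R1881 in both lines, by 8.61-fold to 18.8-fold.

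EPHA7, a receptor best known for guiding axons and patterning tissue, had the widest absolute range of CPM of the members, 15.2 to 271 CPM. On a log scale the range of EPHA3 was wider, at 1.01 to 64.6 CPM. In LNCaP EPHA7 was among the most abundant genes of the family. The siScr vehicle libraries had 249, 271 and 234 CPM, the siScr R1881 libraries had 245, 266 and 250.2 CPM, and the dual knockdown libraries had 182, 186 and 194 CPM. In C4-2 the same groups had 15.2, 16.5 and 17.5 CPM, then 55.7, 51.85 and 54.6 CPM, then 16.9, 18.1 and 17.8 CPM. Every C4-2 library was thus below every LNCaP library. Among all genes tested, 32.0% had the C4-2 siScr libraries all below the LNCaP siScr libraries with vehicle, and 32.9% with R1881. The C4-2 siScr R1881 libraries stood above both other C4-2 groups, which overlapped each other. In C4-2, 24.6% of all genes tested had R1881 libraries all above vehicle, and 19.2% had dual knockdown libraries all below siScr with R1881.

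**Figure D1:**
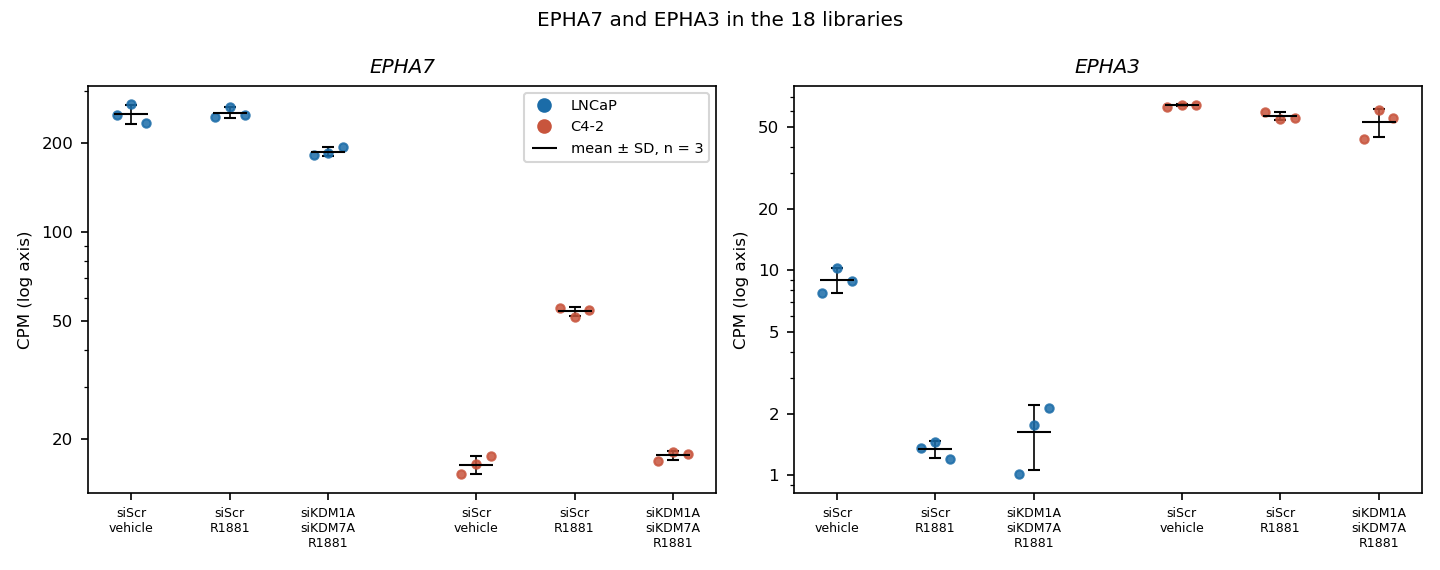
EPHA7 (left) and EPHA3 (right) in CPM on log axes for the 6 groups, with 1 point a library, a bar at the mean and whiskers of ± SD (n = 3). EPHA7 lies above 180 CPM in LNCaP and below 56 CPM in C4-2, where the R1881 group stands above the other groups, and EPHA3 lies below 11 CPM in LNCaP and above 43 CPM in C4-2.

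With vehicle, EPHA7 was 15.6-fold lower in C4-2 than in LNCaP (log2FC -3.97, SE 0.08, adjusted p = 6.19e-20, edgeR quasi-likelihood test with Benjamini-Hochberg adjustment, used for all adjusted p-values here). R1881 did not shift it detectably in LNCaP (log2FC -0.00, SE 0.06, adjusted p = 0.964), and the sign of so small a value varied with the scaling. In C4-2, as a description, EPHA7 was 3.33-fold higher with R1881 than with vehicle (log2FC 1.74, SE 0.10). Dual knockdown in C4-2 left it 3.08-fold lower than siScr with R1881 (log2FC -1.62, SE 0.09). Between the lines with R1881, its level was 4.69-fold lower in C4-2 (log2FC -2.23, SE 0.07).

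The rule for the members did not name dual knockdown in LNCaP, although it was written with earlier results of these data known. In that comparison EPHA7 fell 1.34-fold (log2FC -0.42, SE 0.06, adjusted p = 0.00171). All 3 knockdown libraries were below all 3 siScr libraries, as in 18.5% of all genes tested. The C4-2 value was -1.62, and KDM1A and KDM7A were depleted less in LNCaP than in C4-2. The part of the weaker depletion in the smaller value was not tested. EPHA7 transcripts are poor in G and C, at 37.9% of bases, and after removal of each library's trend with GC content the LNCaP value was -0.26 (log2FC, adjusted p = 0.00492). In bulk RNA, fewer cells that express a gene and less RNA per cell cannot be told apart.

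EPHA7 lies on chromosome 6, and the gene model used for counting spans chr6:93240020-93419547 on the minus strand (GRCh38), with none of its exon bases shared with another gene. EPHA3 lies on the plus strand at chr3:89107524-89482134, also with no shared exon bases. Their promoters are shown because these receptors differed most between the lines among the members tested, in opposite directions. Each sequence is from RefSeq (GRCh38.p14), is read 5′ to 3′ along the gene's strand, covers chr6:93419560-93419809 (minus strand) or chr3:89107371-89107523 (plus strand), and ends before the first transcribed base, with CG pairs in capitals.
EPHA7: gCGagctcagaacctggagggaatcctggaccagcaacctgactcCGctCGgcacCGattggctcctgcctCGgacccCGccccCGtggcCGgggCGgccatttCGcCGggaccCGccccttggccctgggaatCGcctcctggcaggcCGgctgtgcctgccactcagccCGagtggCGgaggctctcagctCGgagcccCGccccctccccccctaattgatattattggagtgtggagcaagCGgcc
EPHA3: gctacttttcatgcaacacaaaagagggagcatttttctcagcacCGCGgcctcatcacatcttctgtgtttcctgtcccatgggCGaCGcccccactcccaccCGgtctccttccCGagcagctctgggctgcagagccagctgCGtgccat

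The EPHA7 stretch holds 19 CG pairs in 250 bases with 69.6% G and C, and the EPHA3 stretch 7 in 153 bases with 58.8%. Over 300 bases, 250 before and 50 after the start, the member promoters held 12 to 49 CG pairs, and the median of all 35116 RefSeq promoters was 14. The half-site of the androgen receptor was searched as AGAACA or its reverse complement TGTTCT, and was the only motif searched. For each member only the RefSeq promoter nearest the start of the counted gene model was searched, of 3 for EPHA7 and 2 each for EPHA4 and EPHB2. None of these 10 promoters held either, against 14.8% of all 35116 promoters, alternative ones included. These letters say nothing of binding elsewhere.

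EPHA3, an ephrin-A receptor of the developing nervous system and heart, had the opposite pattern between the lines. In LNCaP it was at 7.78, 10.3 and 8.88 CPM with vehicle, at 1.37, 1.46 and 1.20 CPM with R1881, and at 1.01, 1.76 and 2.13 CPM after dual knockdown. C4-2 cells had 63.2, 63.9 and 64.6 CPM with vehicle, 59.5, 55.0 and 55.2 CPM with R1881, and 44.0, 60.5 and 55.2 CPM after dual knockdown. The C4-2 libraries were all above the LNCaP libraries. Among all genes tested, the C4-2 siScr libraries were all above the LNCaP siScr libraries in 30.0% with vehicle and 31.9% with R1881. R1881 lowered EPHA3 6.79-fold in LNCaP (log2FC -2.76, SE 0.23, adjusted p = 3.01e-08).

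In C4-2 the R1881 change in EPHA3 was not past the threshold (log2FC -0.18, SE 0.11, adjusted p = 0.226). The R1881 libraries were all below the vehicle libraries, as in 22.3% of all genes tested in C4-2. With the GC trend removed the log2FC was -0.34 (adjusted p = 0.00252). The difference between the 2 responses was a log2FC of 2.59 (SE 0.23, adjusted p = 4.98e-08). EPHA3 was 7.01-fold higher in C4-2 than in LNCaP with vehicle (log2FC 2.81, SE 0.13, adjusted p = 1e-13) and 42.1-fold higher with R1881 (log2FC 5.40, SE 0.17, adjusted p = 1.17e-16). In LNCaP it did not pass the test on dual knockdown (log2FC 0.32, SE 0.27, adjusted p = 0.466), at 16 to 40 counts a library.

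EPHA4, a receptor for both ephrin types, was near 0. LNCaP libraries had 1, 9 and 15 counts with vehicle, 5, 2 and 5 with R1881 and 2, 7 and 1 after dual knockdown. In C4-2 the counts were 1, 0 and 0, then 0, 0 and 2, and then 0 in all 3 dual knockdown libraries, which together allow up to 0.0546 CPM. EPHA4 therefore did not pass the filter on low counts in any fit, leaving 9 of the 10 members tested. Per total count, the 9 LNCaP libraries held 14.9 times the EPHA4 counts of the 9 C4-2 libraries, 47 against 3 (95% exact interval of 4.81 to 75.0, counting error only).

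Levels of family genes were set against each other in CPM per kilobase of all annotated exon bases of a gene. Ranks and shares depend on that length, which need not be the length of the transcripts expressed. EFNA3 and EFNA4 share 44.7% and 14.96% of their exon bases with another annotated gene, so their levels are uncertain. EFNA1, a lipid-anchored ligand of EPHA2, had the highest level of the 22 family genes in each group, from 30.1 ± 0.755 (SD, n = 3) in C4-2 with R1881 to 39.4 ± 2.90 in LNCaP with vehicle. EPHA7 came second in the 3 LNCaP groups, at 33.7 ± 2.46, 34.0 ± 1.44 and 25.1 ± 0.842, and its libraries overlapped those of EFNA1 in the siScr groups but not after dual knockdown. In C4-2, EPHA7 ranked 13, 8 and 12 of 22 in the same order of groups, at 2.20 ± 0.152, 7.25 ± 0.265 and 2.36 ± 0.0843.

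The receptors measured thus had a different make-up in each line. EPHA7 made up 50.9% ± 2.45 of the summed receptor level per kilobase in LNCaP with vehicle, 62.7% ± 2.11 with R1881 and 53.6% ± 0.814 after dual knockdown. The same shares were 4.69% ± 0.315, 16.4% ± 0.432 and 5.74% ± 0.461 in C4-2. There, EPHB4, the receptor of EFNB2 in blood vessels, held 19.7% to 23.7%, EPHA3 held 19.2% to 20.4% and EPHA1 held 16.5% to 19.5%. EPHA3 held at most 2.03% in LNCaP. Among the ephrins, EFNA1 held 34.6% to 39.8% in all 6 groups, and EFNA5 held 8.76% in LNCaP with vehicle and 21.6% in C4-2 with vehicle.

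**Figure D2:**
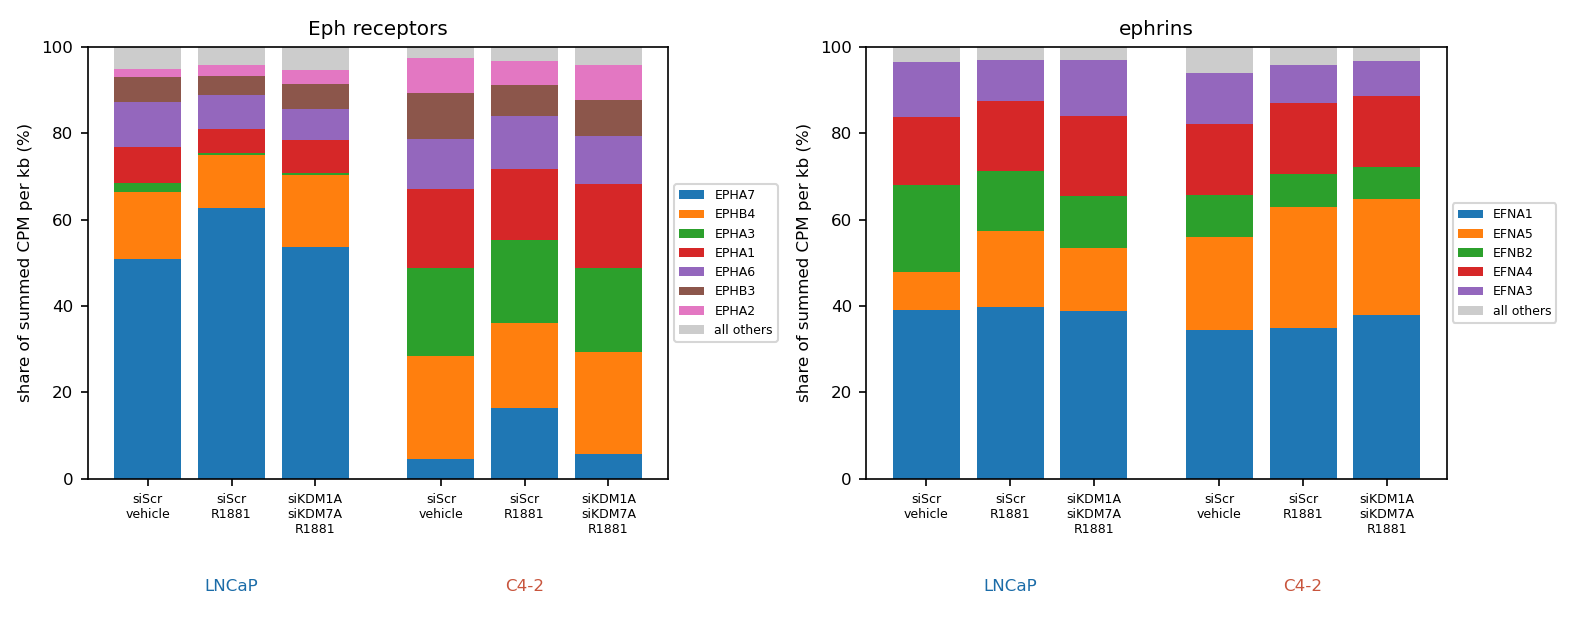
Share of the summed CPM per kilobase of the 14 Eph receptors (left) and the 8 ephrins (right) taken by each gene, as means of 3 libraries in each group, with genes that never reached 5% drawn together in grey. EPHA7 takes from 50.9% to 62.7% of the receptor level in LNCaP and from 4.69% to 16.4% in C4-2.

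R1881 lowered 6 of the 9 members tested in LNCaP and raised none. The genes were EPHA1, EPHA3, EPHB2, EPHB3, EPHB4 and EFNB2, and 23.2% of all 17162 genes tested were lower in that comparison. The median log2FC of the 9 members was -0.63 and that of all genes was -0.04. Apart from EPHA3 the falls were under 2-fold, and EPHA3 was the 1 member past a log2FC of 1, where 12.3% of all genes were past it in either direction. EPHA2, EPHA7 and EFNA1 were not called.

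EPHB2, an ephrin-B receptor known from the gut crypt, had the next largest fall in LNCaP. It was at 11.3, 13.7 and 12.7 CPM with vehicle and at 6.72, 7.02 and 5.68 CPM with R1881 (log2FC -0.98, SE 0.13, adjusted p = 9.53e-06). EPHA1 went from 28.8, 25.2 and 24.5 CPM to 14.6, 14.0 and 15.7 CPM (log2FC -0.83, SE 0.10, adjusted p = 3.51e-06). In both genes the R1881 libraries were all below the vehicle libraries, as in 25.8% of all genes tested.

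EFNB2, a ligand that crosses the membrane and marks arterial endothelium, fell from 93.7, 92.5 and 85.9 CPM to 55.7, 54.5 and 55.5 CPM (log2FC -0.73, SE 0.07, adjusted p = 1.22e-07). Its receptor EPHB4 fell from 69.8, 60.6 and 66.7 CPM to 48.3, 40.1 and 39.9 CPM (log2FC -0.63, SE 0.09, adjusted p = 1.85e-05), so ligand and receptor were both lower. EPHB3 fell from 17.8, 14.9 and 17.9 CPM to 11.2, 11.3 and 10.4 CPM (log2FC -0.63, SE 0.11, adjusted p = 0.000213). EFNA1 had a log2FC of -0.16 (SE 0.08, adjusted p = 0.0922). It passed without LNCaP vehicle replicate 2 (adjusted p = 0.0366) or without LNCaP R1881 replicate 3 (adjusted p = 0.0460).

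**Figure D3:**
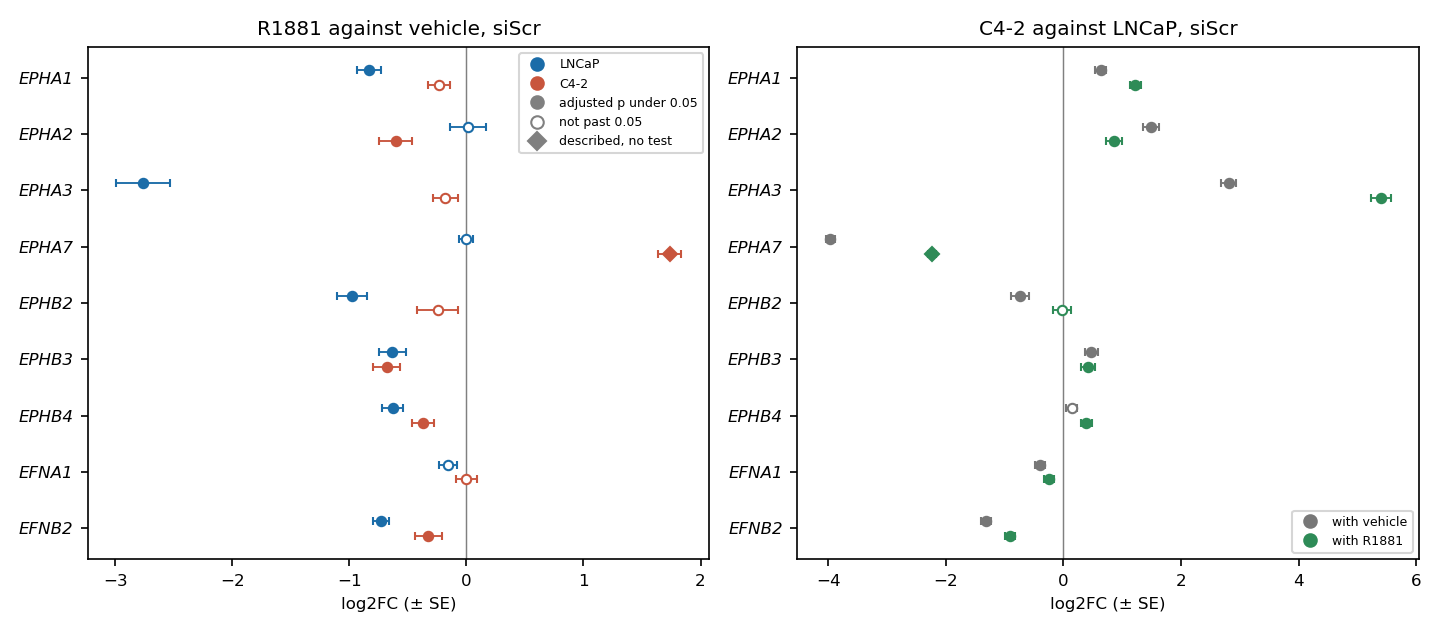
Log2FC ± SE of the 9 members tested, for R1881 against vehicle in each line (left) and for C4-2 against LNCaP with vehicle or R1881 (right), with filled circles at an adjusted p under 0.05, open circles otherwise and diamonds where a value is described without a test. In LNCaP, 6 members lie below 0 with filled circles, and EPHA7 and EPHA3 lie farthest out on opposite sides between the lines.

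In C4-2, R1881 lowered 4 of the 8 members that could be tested, EPHA2, EPHB3, EPHB4 and EFNB2, against 15.9% of all 16965 genes. The median over the 8 was -0.29 and over all genes -0.02. EPHA2, a receptor often abundant in aggressive carcinomas, was at 13.2, 16.4 and 17.7 CPM with vehicle and at 10.3, 10.3 and 9.96 CPM with R1881 (log2FC -0.61, SE 0.14, adjusted p = 0.00445). EPHB3 fell from 24.5, 24.4 and 19.8 CPM to 14.9, 15.5 and 13.4 CPM (log2FC -0.68, SE 0.12, adjusted p = 0.000473).

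EPHB4 in C4-2 fell from 73.7, 76.7 and 64.0 CPM to 56.1, 56.3 and 55.9 CPM (log2FC -0.37, SE 0.09, adjusted p = 0.00677). EFNB2 was at 34.6, 34.0 and 43.9 CPM with vehicle and at 27.3, 32.3 and 28.8 CPM with R1881 (log2FC -0.33, SE 0.11, adjusted p = 0.0402). The highest EFNB2 value was from the shallow vehicle library, without which the log2FC was -0.22 (adjusted p = 0.119), and 3 of the 9 fits that left out 1 library kept the call. EPHA1 (log2FC -0.23, SE 0.10, adjusted p = 0.078) and EPHB2 (log2FC -0.25, SE 0.18, adjusted p = 0.321) were not called. EPHA1 passed when only the compared groups were fitted (adjusted p = 0.0371) and without C4-2 dual knockdown replicate 1 (adjusted p = 0.0276).

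The response to R1881 differed between the lines for 5 of the 8 members tested, against 14.0% of all 18684 genes. EPHA3 has been given above. The fall in LNCaP was the larger for EPHA1 (difference of 0.59, SE 0.14, adjusted p = 0.00473), EPHB2 (0.71, SE 0.22, adjusted p = 0.0299) and EFNB2 (0.41, SE 0.12, adjusted p = 0.0253). EPHA2 went the other way, with a fall in C4-2 and a log2FC of 0.01 in LNCaP (difference of -0.63, SE 0.20, adjusted p = 0.0382). With all counts thinned to the depth of the smallest library, EPHA3 kept its call (adjusted p = 3.72e-06), and adjusted p rose to 0.107 for EPHA1, 0.0772 for EPHA2, 0.65 for EPHB2 and 0.217 for EFNB2. After removal of the GC trend, EPHA2 lost its call (adjusted p = 0.0573) and EPHB4 gained one (difference of 0.35, adjusted p = 0.00378).

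Between C4-2 and LNCaP, 4 members were higher and 4 lower with vehicle, where 29.4% of genes were higher and 29.5% lower. EPHA1, EPHA2, EPHA3 and EPHB3 were higher, and EPHA7, EPHB2, EFNA1 and EFNB2 were lower. With R1881, EPHA1, EPHA2, EPHA3, EPHB3 and EPHB4 were higher (28.6% of all genes) and EFNA1 and EFNB2 lower (29.7%), among the 8 members that could be tested.

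EPHA2 was 5.07, 5.74 and 5.59 CPM in LNCaP with vehicle, a log2FC of 1.49 for C4-2 (SE 0.14, adjusted p = 1.1e-08), and of 0.86 with R1881 (SE 0.14, adjusted p = 1.78e-05). EPHA1 was at 39.2, 40.7 and 41.9 CPM in C4-2 with vehicle, a log2FC of 0.63 (SE 0.10, adjusted p = 8.27e-06), which was 1.22 with R1881 (SE 0.10, adjusted p = 5.94e-10). EFNB2 was 2.49-fold lower in C4-2 with vehicle (log2FC -1.32, SE 0.09, adjusted p = 2.87e-11) and 1.87-fold lower with R1881 (log2FC -0.91, SE 0.08, adjusted p = 6.75e-09).

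EPHB3 was higher in C4-2 by 0.48 with vehicle (adjusted p = 0.00137) and 0.42 with R1881 (adjusted p = 0.00478), in log2FC. On thinned counts, adjusted p was 0.0667 for EPHB3 and 0.0555 for EPHA2 with R1881, and 0.08 for EPHB2 with vehicle. EPHB4 was called with R1881 (log2FC 0.39, SE 0.10, adjusted p = 0.00135) and not with vehicle (log2FC 0.14, SE 0.10, adjusted p = 0.211). EPHB2 was called with vehicle (log2FC -0.74, SE 0.15, adjusted p = 0.000278), where C4-2 had 7.44, 8.52 and 5.82 CPM, and not with R1881 (log2FC -0.02, SE 0.15, adjusted p = 0.906). EFNA1 was lower in C4-2 by 0.40 with vehicle (SE 0.08, adjusted p = 0.000358) and by 0.24 with R1881 (SE 0.08, adjusted p = 0.0145), the latter being lost without LNCaP R1881 replicate 3 (log2FC -0.17, adjusted p = 0.104).

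**Figure D4:**
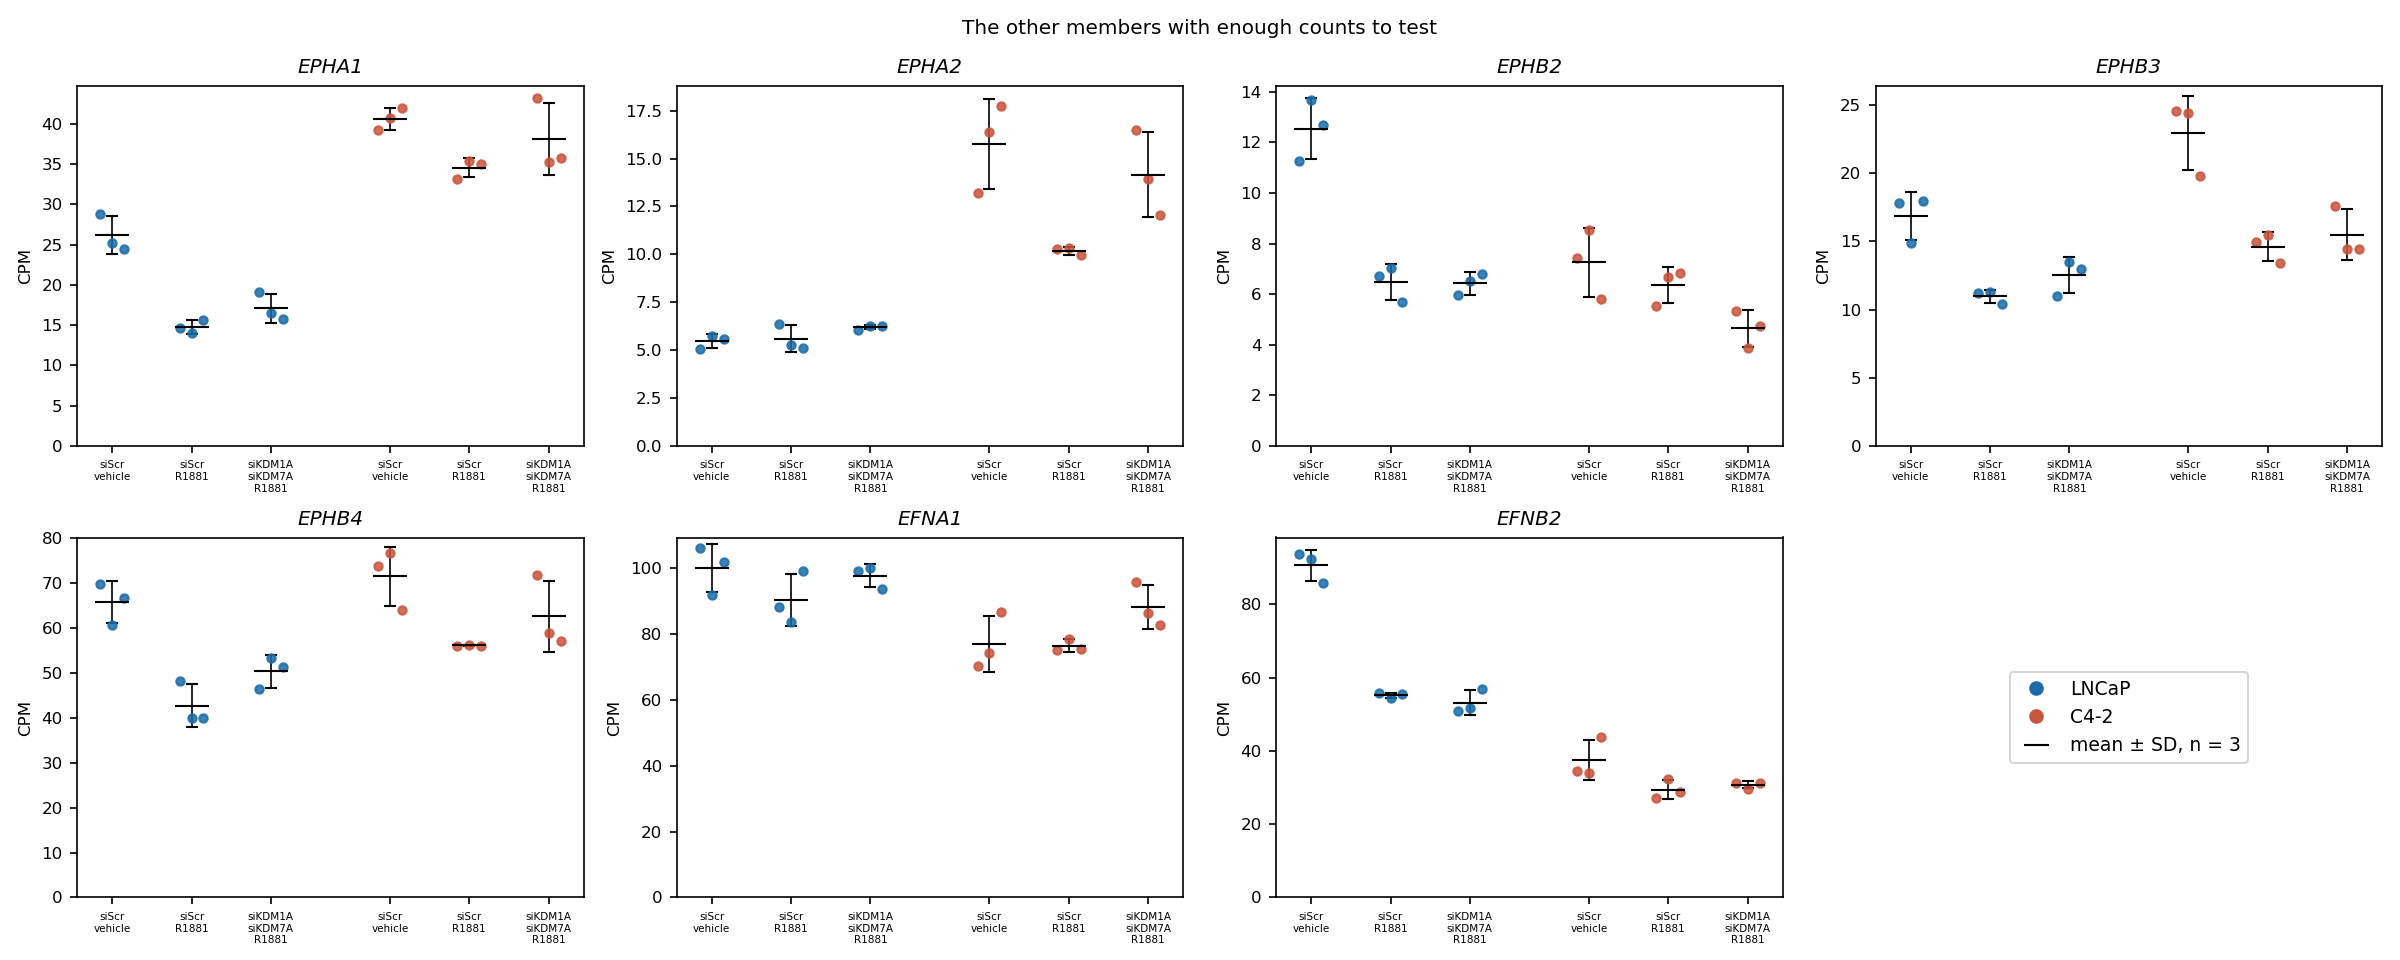
EPHA1, EPHA2, EPHB2, EPHB3, EPHB4, EFNA1 and EFNB2 in CPM for the 6 groups, with 1 point a library, a bar at the mean and whiskers of ± SD (n = 3), on axes that start at 0. EPHA1, EPHB2, EPHB3, EPHB4 and EFNB2 are lower with R1881 than with vehicle in LNCaP, EPHA2 is higher in each C4-2 library than in any LNCaP library, and EFNB2 is lower.

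Dual knockdown in LNCaP called 1 of the 9 members tested, EPHA7, whereas 14.2% of all genes were called and 5.89% were called lower. No member passed a log2FC of 1, which 0.286% of all genes did. The other 8 members lay between -0.04 for EFNB2 and 0.32 for EPHA3, and adjusted p-values were 0.0687 or more. EPHB4, at 48.3, 40.1 and 39.9 CPM with siScr and 46.4, 53.4 and 51.3 CPM after knockdown, came nearest (log2FC 0.25, SE 0.09, adjusted p = 0.0687). It passed when only those 2 groups were fitted (adjusted p = 0.0341) and when no filter was set (adjusted p = 0.0321). Of the 7 members with a positive log2FC, EPHA2, EPHB2, EPHB3 and EFNA1 turned negative once the GC trend was removed.

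In C4-2, described without a test, EPHA7 was the 1 member past a log2FC of 1 in either direction, as were 5.59% of all genes, and 40.5% of all genes had groups that did not overlap (21.2% above and 19.2% below siScr). EPHA2 was at 16.5, 13.9 and 12.1 CPM after dual knockdown and at 10.3, 10.3 and 9.96 CPM with siScr (log2FC 0.47, SE 0.14), which are groups that did not overlap. EPHB2 was at 5.34, 3.89 and 4.73 CPM against 5.55, 6.68 and 6.84 CPM (log2FC -0.45, SE 0.18). EFNA1 (log2FC 0.20, SE 0.09) and EPHB4 (log2FC 0.15, SE 0.09) were higher in all 3 knockdown libraries, and EPHA1, EPHA3, EPHB3 and EFNB2 overlapped their siScr group, with log2FC from -0.09 to 0.14. Without dual knockdown replicate 1 the log2FC was 0.35 for EPHA2, 0.15 for EFNA1, 0.05 for EPHB4 and -0.56 for EPHB2.

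**Figure D5:**
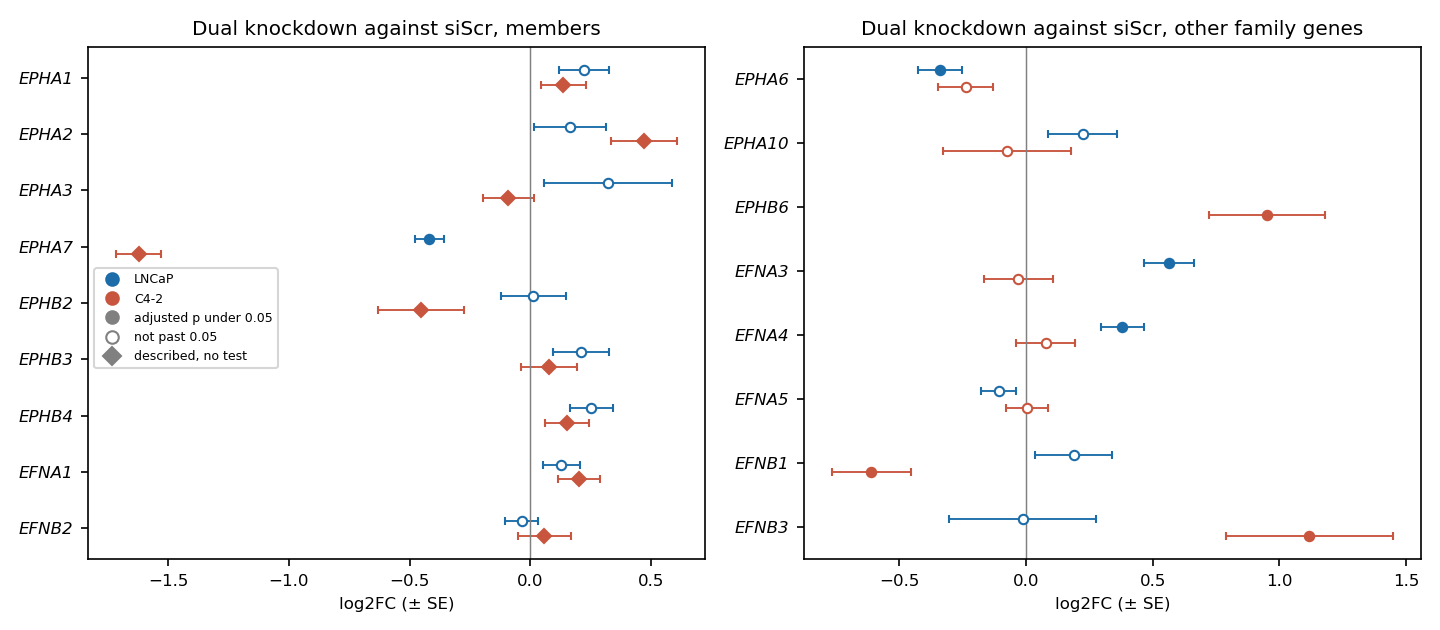
Log2FC ± SE of dual knockdown against siScr, both with R1881, in LNCaP and C4-2 for the 9 members tested (left) and for 8 other family genes (right), with filled circles at an adjusted p under 0.05, open circles otherwise and diamonds where a value is described without a test. EPHA7 lies at -0.42 in LNCaP and -1.62 in C4-2, and the other members lie between -0.45 and 0.47.

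The receptors and ephrins outside the 10 members gave a wider view of the family. EPHA5, EPHA8 and EPHB1 were not tested, at 14 counts or fewer in any library. R1881 lowered EPHA6, EPHA10, EFNA3 and EFNB3 in LNCaP and raised EFNA5, of 7 tested, and in C4-2 it raised EFNA5 and EPHB6 and lowered EFNA3 and EFNB1, of 9 tested. Of all genes, 23.5% were higher and 23.2% lower in LNCaP, and 16.8% and 15.9% in C4-2. Leaving out 1 library kept the call in 5 of 9 fits for EPHA10 in LNCaP, and in C4-2 in 6 of 9 for EFNA3 and 4 of 9 for EFNB1. In C4-2, EFNA3 had an adjusted p of 0.0546 with the GC trend removed and 0.0556 on thinned counts, and EFNB1 0.103 and 0.0532. EFNA5, a lipid-anchored ligand of EPHA3 and EPHA7, was at 50.4, 50.9 and 49.6 CPM in LNCaP with vehicle and 84.4, 94.7 and 89.8 CPM with R1881 (log2FC 0.82, SE 0.07, adjusted p = 5.43e-08). In C4-2 it rose from 99.3, 109 and 115 CPM to 144, 135 and 136 CPM (log2FC 0.36, SE 0.09, adjusted p = 0.00482). EFNA5 was thus the only one of the 16 family genes tested in LNCaP that rose with R1881.

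EPHB6, a receptor whose kinase domain is inactive, had 4, 3 and 1 counts in C4-2 with vehicle, 33, 50 and 42 with R1881 and 92, 73 and 81 after dual knockdown, and at most 8 in an LNCaP library. Its log2FC was 3.53 for R1881 (SE 0.36, adjusted p = 3.58e-06) and 0.95 for dual knockdown (SE 0.23, adjusted p = 0.00773), the latter with an adjusted p of 0.307 on thinned counts. EPHA10, another receptor without kinase activity, was 4.84-fold lower in C4-2 than in LNCaP with vehicle (log2FC -2.28, SE 0.20, adjusted p = 2.42e-09) and 4.52-fold lower with R1881 (adjusted p = 2.34e-09).

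Among the same 12 genes, dual knockdown in LNCaP raised EFNA3 (log2FC 0.56, SE 0.10, adjusted p = 0.0031) and EFNA4 (log2FC 0.38, SE 0.09, adjusted p = 0.00963) and lowered EPHA6 (log2FC -0.34, SE 0.09, adjusted p = 0.0165), of 7 tested, where 8.27% of all genes were higher and 5.89% lower. EFNA4 and EPHA6 were not past the threshold with the GC trend removed, at adjusted p of 0.0832 and 0.0534, and kept their calls in 7 and 5 of the 9 fits without 1 library. EFNA3 shares 44.7% of its exon bases with another annotated gene, and EFNA4 14.96%, so their counts are uncertain. In C4-2, EFNB1 was lower (log2FC -0.61, SE 0.16, adjusted p = 0.0117) and EFNB3 higher (log2FC 1.12, SE 0.33, adjusted p = 0.0241, at 8 to 28 counts a library), where 12.7% of all genes were higher and 10.8% lower. Both were lost in some fits without 1 library, EFNB1 in 3 of 9 and EFNB3 in 4 of 9, and the EFNB3 call also with DESeq2 (adjusted p = 0.0824).

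Of 38 genes that carry or limit Eph and ephrin signals, such as adaptors and Src-family kinases, R1881 raised 6 and lowered 13 of 35 tested in LNCaP, where 23.5% and 23.2% of all genes were called. In C4-2 it raised 8 and lowered 9 of 33 tested, against 16.8% and 15.9%. GRB10, an adaptor of receptor tyrosine kinases, had the smallest p of these genes in both lines and fell from 1086 to 139 mean CPM in LNCaP (log2FC -2.98, SE 0.07, adjusted p = 8.25e-16) and from 1128 to 450 mean CPM in C4-2 (log2FC -1.33, SE 0.07, adjusted p = 2.75e-09). SDCBP, whose product syntenin binds the tails of B-type ephrins, rose in LNCaP (log2FC 0.86, SE 0.06, adjusted p = 4.08e-09) and in C4-2 (log2FC 0.79, SE 0.08, adjusted p = 1.93e-06).

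The Src-family kinase YES1 rose in LNCaP (log2FC 0.80, SE 0.07, adjusted p = 4.26e-08) and the phosphatase PTPN13, which docks on B-type ephrins, fell (log2FC -0.82, SE 0.07, adjusted p = 1.59e-08). In C4-2 the exchange factor VAV3 fell from 12.6 to 0.520 mean CPM (log2FC -4.60, SE 0.33, adjusted p = 8.17e-08). The chimaerin CHN2, which inactivates Rac, rose there from 0.434 to 6.36 mean CPM (log2FC 3.44, SE 0.34, adjusted p = 2.22e-06). VAV3 was also called lower in LNCaP and YES1 also higher in C4-2, whereas PTPN13 was called higher in C4-2, opposite to its fall in LNCaP. The difference between the lines was called for 8 of 36 genes, where 14.0% of all genes were, with GRB10 (1.64, SE 0.09, adjusted p = 3.01e-11) and PTPN13 (1.27, SE 0.11, adjusted p = 2.92e-08) ahead of VAV3 (-2.45, SE 0.54, adjusted p = 0.00309) and KALRN (1.69, SE 0.45, adjusted p = 0.0144). For KALRN adjusted p was 0.156 on thinned counts, 0.0569 without C4-2 vehicle replicate 1 and 0.0559 without C4-2 R1881 replicate 1.

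On dual knockdown in LNCaP, 1 of 35 signalling genes was higher and 2 lower, where 8.27% and 5.89% of all genes were called. RGS3 was higher (log2FC 0.37, SE 0.08, adjusted p = 0.00963), and PTPN13 (log2FC -0.36, SE 0.07, adjusted p = 0.00386) and ITSN1 (log2FC -0.25, SE 0.07, adjusted p = 0.0222) were lower. With the GC trend removed, adjusted p was 0.121 for RGS3 and 0.0844 for ITSN1, and 8 and 6 of the 9 fits without 1 library kept these calls. In C4-2, 3 of 33 were higher and 5 lower, where 12.7% and 10.8% of all genes were.

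There, SDCBP rose from 104 to 221 mean CPM (log2FC 1.08, SE 0.07, adjusted p = 6.13e-07), and the 2 exchange factors VAV2 (log2FC -0.63, SE 0.09, adjusted p = 0.000248) and NGEF, which binds EphA receptors (log2FC -0.59, SE 0.10, adjusted p = 0.000563), fell along with CHN2 (log2FC -1.40, SE 0.26, adjusted p = 0.00158, and 0.101 on thinned counts). The knockdown response differed between the lines for 8 of 36, where 10.9% of all genes did, and SDCBP (0.97, SE 0.09, adjusted p = 9.24e-07), ROCK1 (0.57, SE 0.10, adjusted p = 0.00126), YES1 (0.53, SE 0.11, adjusted p = 0.00349) and VAV2 (-0.53, SE 0.11, adjusted p = 0.00352) had the smallest p-values.

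Between C4-2 and LNCaP with vehicle, 12 of 36 signalling genes were higher and 15 lower, and with R1881 16 were higher and 10 lower, where 29.4% and 29.5% of all genes were called with vehicle and 28.6% and 29.7% with R1881. RGS3 (log2FC 1.63, SE 0.08, adjusted p = 5.12e-13), NGEF (log2FC 1.28, SE 0.10, adjusted p = 4.28e-10) and the ubiquitin ligase CBL (log2FC 1.09, SE 0.09, adjusted p = 6.86e-10) were higher in C4-2 with vehicle. The kinase PAK1 was at a mean of 6.25 CPM in LNCaP and 0.150 CPM in C4-2 (adjusted p = 1.12e-10). With R1881, GRB10 was higher in C4-2 (log2FC 1.69, SE 0.06, adjusted p = 2.75e-15), as were RGS3 (log2FC 1.48, SE 0.09, adjusted p = 2.7e-12) and CBL (log2FC 1.01, SE 0.09, adjusted p = 1.32e-09), and PAK1 was lower (adjusted p = 7.02e-10).

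The 5 genes with the pattern most like that of EPHA7 over the 18 libraries, among 14942 with a mean of at least 1 CPM, were ZNF737, ZNF568, ZNF667, ZNF415 and ZNF506. Likeness was the root mean square difference of centred log2(CPM + 1), which was 0.392 for ZNF737 and 0.460 to 0.488 for the next 4, against a median of 1.69 over all genes. ZNF737 had means of 31.4, 44.5 and 37.7 CPM in the LNCaP groups and 3.15, 5.31 and 2.52 CPM in the C4-2 groups, in the order vehicle, R1881 and dual knockdown. The likeness lay mainly in the gap between the lines, since group means of the 5 were at least 20.7 CPM in LNCaP siScr cells and at most 5.31 CPM in C4-2. No member or other family gene was among them.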

How the data were processed

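RNA Seq had been performed on poly(A) RNA from 18 libraries, in 6 groups of 3, assigned by their titles. The authors deposited unnormalised counts of read pairs assigned to each gene, obtained after trimming with TrimGalore, alignment to GRCh38 with STAR and FeatureCounts (version 1.5.0-p1, Ensembl 83) without options for strand or multiply mapped reads. Symbols came from GENCODE 29.

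CPM used TMM factors over the 18 libraries. Each line's 9 libraries were fitted in a model of 3 groups with edgeR 4.0.16 (R 4.3.3) after filterByExpr (minimum count 10, minimum total 15), and line comparisons and differences of responses in a model of all 18. Two-sided quasi-likelihood tests were adjusted by the Benjamini-Hochberg method over all genes tested, and a gene was called at an adjusted p under 0.05. SE is the log2FC divided by the root of the F statistic. Nothing states that replicates were separate cultures, so p-values measure the spread between these libraries. Between replicates, chi-square per gene was 2.41 to 16.9, above counting error.

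The members, the 12 other family genes, the 38 signalling genes, the 5 genes most like EPHA7, the siRNA targets, the hormone check and the markers were named by rules written with earlier results of these data known. From each comparison, up to 4 called signalling genes with the smallest p were named. Alternatives were DESeq2 1.42.0 (Wald test), RLE factors, a floor of 10 counts in each library, no filter, a fit of the compared groups alone, a block for replicate number, thinning to the smallest library, leaving out each library and, added after seeing the data, removal of the trend with GC content. The fits were tested on simulated data.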

Additional observations from a re-analysis of the deposited data

Results flagged for a closer look

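The results here are those in which the response of a family gene differed between the lines in a test of the difference itself. For R1881, the log2FC in C4-2 minus that in LNCaP was 0.59 for EPHA1, -0.63 for EPHA2, 2.59 for EPHA3, 0.71 for EPHB2 and 0.41 for EFNB2 among the members. Outside them it was 0.76 for EPHA6 (adjusted p = 0.000385), 4.35 for EPHB6 (adjusted p = 0.00303) and -0.46 for EFNA5 (adjusted p = 0.00465).

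EPHA6 fell with R1881 in LNCaP, from 43.0, 46.4 and 43.1 CPM to 26.3, 27.3 and 26.6 CPM, and was at 30.9, 34.5 and 36.4 CPM and then 34.1, 31.3 and 37.2 CPM in C4-2. The EPHB6 value rests on at most 8 counts in each LNCaP library and had an adjusted p of 0.0754 on thinned counts and 0.0896 without LNCaP vehicle replicate 1.

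For dual knockdown, the difference was -0.57 for EFNA3 (adjusted p = 0.0441) and -0.77 for EFNB1 (adjusted p = 0.027). EFNB1 was at 10.9, 10.7 and 8.68 CPM in C4-2 siScr with R1881 and at 8.12, 6.58 and 5.16 CPM after dual knockdown, and at 6.12, 5.41 and 6.08 CPM and then 6.64, 7.42 and 5.80 CPM in LNCaP. Of the 18 fits without 1 library, 6 kept the call for EFNA3 and 12 that for EFNB1, and on thinned counts adjusted p was 0.399 and 0.137. Among the members, the fits without 1 library kept the difference in R1881 response in 9 of 18 for EPHA2 (adjusted p up to 0.113, without LNCaP R1881 replicate 1), 12 of 18 for EPHB2 (up to 0.0826, without LNCaP R1881 replicate 3) and 11 of 18 for EFNB2 (up to 0.0919, without C4-2 vehicle replicate 1).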

How the results depend on the processing

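No call of a member changed direction under any alternative. Of 576 member values under alternatives other than leaving out a library, 523 kept their direction and side of the threshold, or for described values moved by less than the spread, 14 lost a call, 5 gained one and 11 described values moved; of 972 without 1 library, 916 were kept. Without a filter or with only the groups compared, 2 members were called for dual knockdown in LNCaP in place of 1, and on thinned counts 1 in place of 5 for the difference in R1881 response, which was 3 without a filter. Without 1 library, members called ranged from 1 to 2 past a log2FC of 1 for R1881 in LNCaP, 1 to 2 for dual knockdown in LNCaP and 2 to 5 for the difference in R1881 response, lowest without LNCaP vehicle replicate 2 or C4-2 R1881 replicate 2. Values described without a test are in none of these counts of members called. The cause was not tested. The shallow library held 20 counts of EPHB2.

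Values near 0 changed sign. EPHA7 with R1881 in LNCaP was 0.0154 with RLE factors, 0.0299 with no filter, 0.0152 with DESeq2, 0.0025 on thinned counts, 0.0065 with only the groups compared and -0.046 to 0.0631 without 1 library. EFNA1 with R1881 in C4-2 was 0.0083 with RLE factors, 0.0278 with no filter, 0.0017 with at least 10 counts, 0.0119 with DESeq2, 0.002 with the replicate block, 0.1585 with the GC trend removed, 0.0038 with only the groups compared and -0.0655 to 0.0808 without 1 library. EPHA2 with R1881 in LNCaP was -0.079 on thinned counts and -0.1002 to 0.0902 without 1 library. For dual knockdown in LNCaP, removal of the GC trend gave -0.0386 for EPHA2, -0.0789 for EPHB2, -0.0528 for EPHB3 and -0.0347 for EFNA1, and EPHB2 was also -0.0028 with RLE factors, -0.002 with DESeq2 and -0.0772 to 0.0627 without 1 library. Between the lines, EPHB4 with vehicle was -0.0895 with the GC trend removed, and EPHB2 with R1881 was 0.0356 with the block and -0.1147 to 0.0683 without 1 library. The difference in R1881 response of EPHB3 was 0.0612 with the GC trend removed, 0.0111 on thinned counts and -0.1235 to 0.03 without 1 library.

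Same-numbered libraries shared little deviation, and 2 of 18 such pairs had a correlation of deviations over 0.1 (range -0.0905 to 0.159). Pairs with different numbers were not compared, so weak pairing was not tested. With the replicate block, 3 in place of 5 members were called for the difference in R1881 response, and EPHA2 and EPHB2 had adjusted p of 0.0732 and 0.0506.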
